A study of Mus musculus with 12 samples.

Results

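Transitional wells, each sorted for 1 mouse epidermal cell, had ribosome counts on messages of basal keratins (Krt5 or Krt14) and of spinous keratins (Krt1 or Krt10). Whether both kinds of count came from the same cell was not tested. A well was taken as transitional when it held at least 100 counts, at least 5 counts of these 4 keratins together, and a share of Krt1 and Krt10 among the keratin counts from 0.1 to below 0.5. Wells rich in immediate early genes (2% of counts or more), upper hair follicle genes (1% or more) or hair follicle bulge genes (0.5% or more) were left out. This left 127 transitional wells of 1906 wells with enough counts on the plates of old and young mice, of 2220 wells in the whole series. With the same limits, 762 wells had a share below 0.1 and are called basal here, and 373 had a share of 0.5 or more and are called spinous. The wells were chosen by the measured counts of 21 genes, the 4 keratins among them. These genes were therefore taken out of all sums and tests below, and their own values are given as a description.

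The counts come from ribosome footprints, the short pieces of messenger RNA that a ribosome shields from nuclease, sequenced from 1 sorted cell per well. The animals were female C57BL/6 mice, and all of them, young and old, received the translation inhibitor cycloheximide in the tail vein shortly before they were killed, so no untreated animal serves as a reference. Live cells were isolated from the epidermis of the back skin with trypsin and sorted into 384-well plates. Plates of 1 age and 1 postnatal day were taken as technical replicates of 1 animal, which the labels do not say outright, and animals are called here by their postnatal day, which is also their age (young P57, P59 and P60, old P662, P722 and P758). No doublet caller was run, and genes with near-identical copies (the histones, the Skint family, Dsg1a and Dsg1b) may share footprints that the authors' counting split between them.

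The epidermis renews itself from a basal layer of keratinocytes that sit on the basement membrane, held by integrins and hemidesmosomes. Cells that leave this layer stop dividing, give up the basal keratins for the spinous pair, and strengthen their desmosomes, the junctions that tie keratin filaments of neighbouring cells together. Notch receptors, activated by ligands on adjacent cells, are a known switch for this commitment in mouse skin. Later, in the granular layer, the cells make barrier lipids and the proteins of the cornified envelope.

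The transitional wells came mainly from 2 animals. P60 gave 77 of 789 classified wells (9.76%, exact 95% binomial interval 7.78 to 12.0) and P758 gave 45 of 391 (11.5%, 8.52 to 15.1). P662 gave 2 of 39, P59 gave 2 of 16, P722 gave 1 of 22 and P57 gave none of 5 (an interval of up to 52.2%). The 5 wells of P59, P662 and P722 held 1533 counts together, with 4 of Krt77, 2 of Notch1 and 0 of Notch3, too few to describe further. Among the animals with at least 10 classified wells, the share was 7.06% ± 3.86 (SD, n = 3) in the old and 11.1% ± 1.94 (SD, n = 2) in the young, and the 2-sided exact permutation test gave p = 0.3, where the smallest p this design allows is 0.1. The sign of this difference turned with at least 20 keratin counts per well, where the old exceeded the young by 1.10 percentage points. There P60 was the only young animal left against 3 old ones, so the animals changed along with the limit. The shares of both ages overlapped, and no difference could be shown with these animals.

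**Figure D1:**
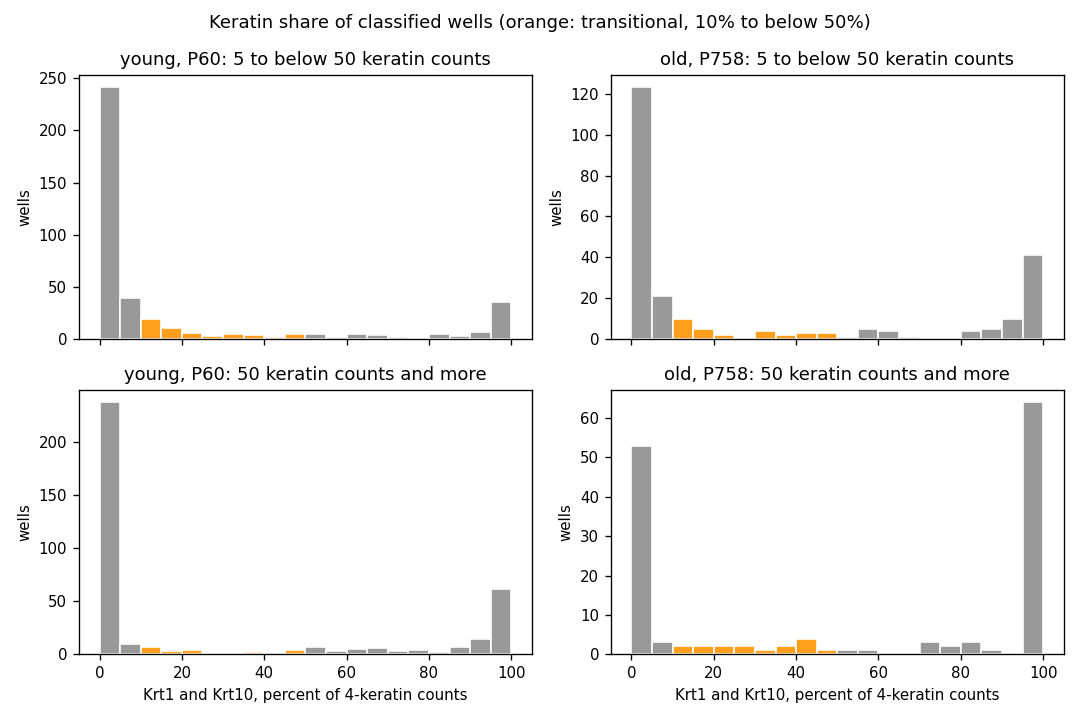
Histograms of the share of Krt1 and Krt10 among the counts of the 4 keratins (x axis, percent, bins of 5) against the number of wells (y axis) in young P60 and old P758, for wells with 5 to below 50 keratin counts and with 50 or more. Most wells sit at either end, and the orange bars are the transitional wells; the bin from 0% to 5% holds 238 wells and the bin from 95% to 100% holds 62 in P60 with 50 keratin counts or more.

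Classified wells clustered at both ends of the keratin share, as the histograms show, and transitional wells were the thin middle. Of 548 classified wells with at least 50 keratin counts, 306 were basal, 205 were spinous and 37 (6.75%) were transitional, against 10.1% of all classified wells. The transitional wells held a median of 23 keratin counts (range 5 to 1469), and 60 of the 127 held fewer than 20. In 24 wells the spinous part of the share was a single count. The exact 95% interval of a well's own share lay wholly inside 0.1 to 0.5 in 23 of 127 wells, and in the others counting error alone reached a neighbouring class. At the edges, 5 wells lay exactly at 0.1, the highest share outside was 9.68%, the highest share inside was 49.2%, and 5 wells lay at 50%. Another 40 wells had the keratin share but were left out, 25 for immediate early genes, 5 for upper follicle genes and 10 for bulge genes, and 27 of these came from P758.

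Transitional wells were shallower than the other classes. In P60 they held a median of 814 counts and 666 genes, against 1587 counts and 1072 genes in basal wells and 1639 counts and 1089 genes in spinous wells. In P758 the transitional wells held a median of 567 genes, against 657 in basal and 710 in spinous wells, and their median counts were also the lowest (851.5 in basal and 949.5 in spinous wells). The summed depth of the class was 102389 counts in P60 and 71776 in P758, and 1 well of P758 held 10832 of the latter. The 127 wells used 111 distinct well barcodes, of which 15 occurred on more than 1 plate, among 384 barcodes over all wells. Levels are in CPM, the usual scaling of a count by the total it is part of. Wells of dendritic epidermal T cells, which should hold no keratin, gave 1 Krt1 or Krt10 count in 26776 counts of 12 wells in P60 (37.3 CPM of all counts, median depth 2626) and 2 in 11171 counts of 11 wells in P758 (179 CPM, median depth 445). The T cell wells also held 36 counts of Krt5 or Krt14 in P60 and 8 in P758, more than of Krt1 or Krt10. In transitional wells Krt1 and Krt10 stood at 13009 and 23810 CPM of all counts, and no T cell well was classified as transitional.

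The keratins of the rule are given as a description, since they chose the wells. Krt10 in P60 was at 258 in basal, 9277 in transitional and 63710 in spinous wells, in CPM of the counts outside the 21 genes, the unit of all levels below. In P758 Krt10 was at 222 in basal, 14730 in transitional and 66300 in spinous wells. Krt5 was at 34220, 28170 and 5973 CPM in P60 and at 32120, 39330 and 3703 CPM in P758. Krt14 was at 12820, 6911 and 582 CPM in P60 and at 18440, 20040 and 1186 CPM in P758, so both basal keratins lay below the basal level in P60 and above it in P758. Notch3 and Skint6, the other markers proposed for these wells, summed to 740.5 CPM in P60 and 594 in P758, against 57.6 and 70.3 in basal wells. Both genes were higher in spinous wells still (1627 and 1471 CPM summed), so neither marked the transitional wells alone.

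Marker lists of T cells, melanocytes and Langerhans cells were below their basal levels in both animals, and the fibroblast list was above its basal level. Of 11 T cell genes found in the files, all 11 were at 0 in transitional wells of P60 and 9 in P758 (0 and 76.2 CPM summed, against 177 and 316 in basal wells). The 8 melanocyte genes summed to 10.3 and 0 CPM, with 7 and 8 at 0. The 8 fibroblast genes summed to 51.4 and 91.4 CPM, against 27.7 and 54.7 in basal and 18.1 and 30.0 in spinous wells. The 7 endothelial genes summed to 30.9 and 0 CPM, against 7.11 and 11.7 in basal and 4.01 and 7.50 in spinous wells. The fibroblast sums rest on 5 and 6 counts, and the endothelial sum of P60 on 3. The 11 Langerhans genes summed to 123 and 244 CPM with 7 at 0 in each animal. The 21 granular and cornified genes summed to 216 CPM in P60 and 183 in P758, against 1110 and 5895 in spinous wells. The upper hair follicle genes outside the rule summed to 658 and 579 CPM, below the 905 and 1011 of basal wells. The outer bulge genes outside the rule summed to 329 and 183 CPM, against 445 and 277 in basal and 104 and 97.6 in spinous wells. The sebaceous list summed to 710 and 762 CPM, against 692 and 718 in basal wells and 1069 and 1595 in spinous wells.

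Sequences upstream of the start of Notch3, Skint6, Krt77 and Krtdap are shown because these genes recur in the results below; Krt77 and Krtdap were picked after their values were seen. They are the 250 bases before each start, 5′ to 3′ on the gene's strand, from RefSeq on GRCm38.p6. Capitals mark the letters TGANTCA (bound by AP-1 factors) or TGGGAA (bound by RBPJ, the DNA-binding partner of Notch) and were searched on both strands; the letters are a description and not a site. TGANTCA is in 6.75% and TGGGAA in 21.6% of the 32851 upstream windows of the same length in that table. The Notch3 window is chr17:32166891-32167140 on the minus strand, Skint6 chr4:113286974-113287223 on the minus strand, Krt77 chr15:101869706-101869955 on the minus strand and Krtdap chr7:30787655-30787904 on the plus strand. Krtdap holds TGANTCA 1 time and TGGGAA 3 times, and the other windows hold neither.
Notch3: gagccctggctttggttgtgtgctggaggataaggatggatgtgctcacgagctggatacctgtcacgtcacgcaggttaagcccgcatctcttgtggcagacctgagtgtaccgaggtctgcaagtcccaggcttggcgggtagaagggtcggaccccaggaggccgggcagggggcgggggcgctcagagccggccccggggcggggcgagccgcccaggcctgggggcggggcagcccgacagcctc
Skint6: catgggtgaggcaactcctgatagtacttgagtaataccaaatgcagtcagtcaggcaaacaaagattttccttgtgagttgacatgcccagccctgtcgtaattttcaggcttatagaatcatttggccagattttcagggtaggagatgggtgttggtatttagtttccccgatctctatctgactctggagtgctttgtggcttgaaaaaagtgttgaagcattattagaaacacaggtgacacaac
Krt77: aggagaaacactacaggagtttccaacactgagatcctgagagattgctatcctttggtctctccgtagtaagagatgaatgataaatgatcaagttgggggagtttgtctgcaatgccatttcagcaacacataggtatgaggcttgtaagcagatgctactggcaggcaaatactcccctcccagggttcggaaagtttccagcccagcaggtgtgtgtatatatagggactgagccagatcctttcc
Krtdap: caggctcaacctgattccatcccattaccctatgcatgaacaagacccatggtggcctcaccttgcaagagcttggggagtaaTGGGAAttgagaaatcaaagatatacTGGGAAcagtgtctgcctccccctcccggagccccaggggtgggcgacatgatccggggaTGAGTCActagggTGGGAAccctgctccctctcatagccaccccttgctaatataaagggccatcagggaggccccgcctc

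Class contrasts were fitted on counts summed per animal and class in P60 and P758, the 2 animals with at least 5 wells in every class, with edgeR's quasi-likelihood test, the animal as a block and Benjamini-Hochberg adjustment at 0.05 over 6075 genes. The classes were cut on keratins in the same wells, so a gene translated together with those keratins differs between classes by their construction. The values say how far each gene had moved. Against basal wells, 77 genes were higher (1.27% of genes tested) and 134 lower (2.21%) in transitional wells, 3.47% together, and 76 of the 77 and all 134 had that sign in both animals. Against spinous wells, 210 were higher (3.46%) and 216 lower (3.56%), 7.01% together, 206 and 216 with the same sign in both animals. Of the 77 genes above basal, 38 (49.4%) were still below spinous, and of the 134 below basal, 35 (26.1%) were still above spinous (0.626% and 0.576% of all genes tested). The median log2 difference over all genes was -0.01 against basal and 0.02 against spinous. Without TMM scaling the split against spinous wells was 271 higher and 154 lower, and with DESeq2 the split against basal wells was 42 higher and 45 lower. With plates as units, 252 and 464 genes were called. Those counts became 387 and 407 on the plates of P60 alone and 48 and 128 on the plates of P758 alone. Restricted to wells of 500 to below 1500 counts they were 2 and 54.

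**Figure D2:**
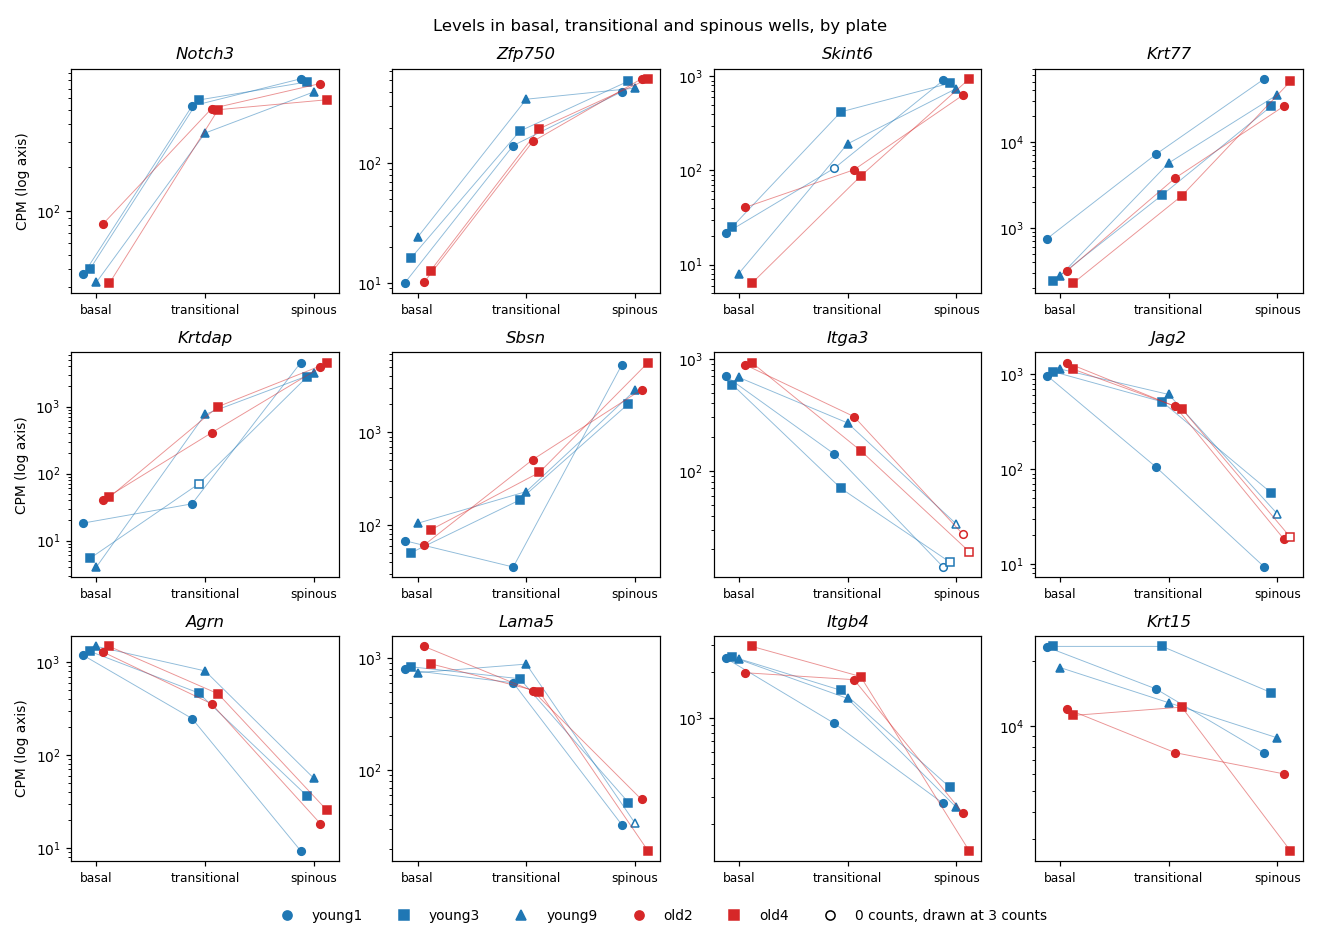
Level of 12 genes (y axis, CPM, log scale) in basal, transitional and spinous wells (x axis), each point the summed wells of 1 plate, blue for the 3 plates of P60 and red for the 2 plates of P758, open where the plate had 0 counts and is drawn at the level of 3 counts. Notch3 in transitional wells (345 to 583 CPM) lies between its basal and spinous levels on each plate, and Itga3 has no count in spinous wells.

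Notch3, a Notch receptor of suprabasal keratinocytes, was proposed as a marker and is described without a test. Its level in basal wells was 36.5, 39.6 and 32.2 CPM on the 3 plates of P60 and 81.2 and 31.7 CPM on the plates of P758. In transitional wells it was 530, 583 and 345 CPM in P60 and 509 and 500 CPM in P758. In spinous wells it was 818, 778 and 664 CPM in P60 and 758.2 and 586 CPM in P758. Every plate thus had its transitional level several times above its basal level and below its spinous level, and the transitional and basal values did not overlap. Over each animal the transitional wells stood at a position of 0.633 (P60) and 0.746 (P758), where 0 is the basal level and 1 the spinous level on the linear CPM scale.

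Of 17 Notch pathway genes tested, Hes1 and Notch1 were called higher in transitional than basal wells, beside the chosen marker Notch3, and Jag2 was called lower, against 1.27% of all genes higher and 2.21% lower; the list median was 0.15 on the log2 scale. Hes1, a repressor switched on by Notch signalling, rose from 51.9 to 247 CPM in P60 and from 62.5 to 244 CPM in P758 (log2 difference 2.05 ± 0.36 SE, edgeR adjusted p = 0.00022). Its spinous levels were 243 and 308 CPM, and the difference from spinous wells did not pass (-0.29 ± 0.31, edgeR adjusted p = 0.70). The Hes1 call against basal wells was lost on the plates of P758 alone (edgeR adjusted p = 0.13). Transitional wells thus held a Hes1 level several times the basal one.

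Notch1, the receptor of basal and early suprabasal keratinocytes, was highest in transitional wells. On the 3 plates of P60 it stood at 936, 1109 and 893 CPM in basal wells, at 1520, 2147 and 1304 CPM in transitional wells and at 1064, 1313 and 978 CPM in spinous wells. On the 2 plates of P758 it stood at 711 and 863 CPM in basal, 1579 and 1761 CPM in transitional and 950 and 764 CPM in spinous wells. On each plate the transitional value was the highest of the classes. The rise over basal wells passed (0.87 ± 0.25 SE, edgeR adjusted p = 0.044), and the difference from spinous wells did not (0.65 ± 0.25, edgeR adjusted p = 0.13).

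Of the ligands tested only Jag2 was called against basal wells. It was between 971 and 1330 CPM on the basal plates, between 106 and 613.5 CPM on the transitional plates and at most 56.6 CPM on the spinous plates. It was lower than in basal wells (-1.45 ± 0.28 SE, edgeR adjusted p = 0.0011) and higher than in spinous wells (4.31 ± 0.42, edgeR adjusted p = 5.6e-09), and over the 5 plates the classes did not overlap. Dll1, another ligand, stood at 198, 82.3 and 12.0 CPM in basal, transitional and spinous wells of P60 and at 164, 61.0 and 22.5 CPM in P758, and passed only against spinous wells (edgeR adjusted p = 0.042; 0.056 against basal). Jag1, a further ligand, was at 247 and 328 CPM in basal and 278 and 366 CPM in transitional wells (0.08 ± 0.29 SE, edgeR adjusted p = 0.95). Lfng, which adds sugars to Notch receptors, had 6 counts in transitional and 0 in spinous wells, at least 9.39-fold higher by a floor of 3 counts over both animals. Notch2 was lower than in spinous wells (-1.22 ± 0.28 SE, edgeR adjusted p = 0.0043).

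Skint6, of a family of immunoglobulin-like keratinocyte genes named for a member that selects epidermal T cells, is described without a test as a proposed marker. Its transitional levels were 0, 420 and 192 CPM on the plates of P60 and 102 and 87.0 CPM on those of P758, against 6.34 to 40.6 CPM in basal and 630 to 942.5 CPM in spinous wells. The plates did not agree among themselves, and 1 plate of P60 had no Skint6 count among its transitional wells. Of the 9 family members tested, Skint6 included, Skint1 and Skint7 were called higher than in basal wells beside the marker, against 1.27% of all genes, and 6 with the marker were lower than in spinous wells, against 3.56%. Skint7 stood at 66.1, 247 and 162.5 CPM in P60 and 54.7, 122 and 135 CPM in P758, and its difference from spinous wells did not pass (edgeR adjusted p = 0.83).

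Of 9 spinous markers tested, 8 were higher than in basal wells and all 9 were lower than in spinous wells, with list medians of 1.72 and -2.16; over all genes 1.27% and 3.56% were called in these directions. Krt77, a keratin of differentiating epidermis, was at 468, 4690 and 39910 CPM in basal, transitional and spinous wells of P60 and at 262, 2804 and 40630 CPM in P758. It rose over basal wells (3.27 ± 0.31 SE, edgeR adjusted p = 9.1e-09) and was below spinous wells (-3.64 ± 0.31, edgeR adjusted p = 3.6e-10). Krtdap, a secreted protein of differentiating keratinocytes, rose from 10.7 to 216 CPM in P60 and from 43.0 to 823 CPM in P758 (4.43 ± 0.46 SE, edgeR adjusted p = 8.5e-08). On the plates of P60 its transitional level was 35.3 CPM (1 count), 0 and 767 CPM (20 counts), so the P60 value rests on 1 plate. On those of P758 it was 407 and 1000 CPM, and 1 well gave 41.3% of all transitional counts. Sbsn (suprabasin) rose from 67.5 to 154 CPM in P60 and from 78.1 to 411 CPM in P758, against 3621 and 4514 CPM in spinous wells. On 1 plate of P60 it was lower in transitional (35.3 CPM, 1 count) than in basal wells (68.0 CPM).

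Of 31 epidermal transcription factors tested, 4 were higher than in basal wells and 0 lower, against 1.27% and 2.21% of all genes. Zfp750, a factor needed for terminal differentiation, was at 9.95, 16.2 and 24.1 CPM on the basal plates of P60 and 10.2 and 12.7 CPM on those of P758. It was at 141, 187 and 345 CPM on the transitional plates of P60 and at 153 and 196 CPM on those of P758. The plate values of these classes did not overlap (3.69 ± 0.44 SE, edgeR adjusted p = 7e-07), but the values of 141 and 153 CPM were only 4 and 3 counts. Zfp750 remained below spinous wells (-1.37 ± 0.31, edgeR adjusted p = 0.0035). Grhl1 and Grhl3, grainyhead factors of barrier formation, were both above basal and below spinous wells. Foxn1, a factor of keratinocyte differentiation, rose to 82.3 and 61.0 CPM from 6.40 and 3.90 (3.57 ± 0.70 SE, edgeR adjusted p = 0.0011), and its difference from spinous wells did not pass (edgeR adjusted p = 0.79). Trp63, a central factor of stratified epithelium, did not pass in either contrast (edgeR adjusted p = 0.87 and 0.64).

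Of 15 barrier lipid genes tested, 6 were above basal wells and 10 below spinous wells, against 1.27% and 3.56% of all genes. Acer1, a ceramidase of the epidermis, went from 4.98 to 123 CPM in P60 and from 0 to 168 CPM in P758 (4.96 ± 0.61 SE, edgeR adjusted p = 8.3e-07), against 530 and 454 CPM in spinous wells. Abca12, the lipid transporter of lamellar granules, rose less (1.86 ± 0.33, edgeR adjusted p = 0.00031). Of 15 cholesterol synthesis genes tested, 6 were below spinous wells and none was above them, against 3.56% and 3.46% of all genes. The 4 granular genes tested (Asprv1, Casp14, Klk5 and Spink5) were all below spinous wells and none passed against basal wells.

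Among desmosome genes, 2 of 12 were above basal wells, Dsg1a and Dsg1b, and 1 was below, Dsg2, against 1.27% and 2.21% of all genes. Against spinous wells 8 of the 12 were lower and 3 higher, against 3.56% and 3.46%. Dsg1a, a desmoglein of the upper layers, was at 398, 1039 and 2608 CPM in P60 and 379, 1493 and 2465 CPM in P758 (1.60 ± 0.27 SE over basal, edgeR adjusted p = 0.00017). Dsg3, the desmoglein of the lower layers, stood at 751 and 838 CPM, against 1057 and 906 in basal wells, where the difference did not pass (edgeR adjusted p = 0.65), and 235 and 97.6 in spinous wells (2.08 ± 0.31, edgeR adjusted p = 1.5e-05). Nectin4, an adhesion molecule, rose (4.94 ± 0.71, edgeR adjusted p = 1.3e-05) and Cdh3, the P-cadherin of basal cells, fell (-1.16 ± 0.30, edgeR adjusted p = 0.019).

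By their estimates over both animals, genes that hold cells to the basement membrane lay between the neighbours, but only Itga3 passed in both contrasts. Of 17 hemidesmosome and basement membrane genes tested, 4 were lower than in basal wells (Col4a2, Hspg2, Itga3 and Lamc1) and 12 were higher than in spinous wells, with list medians of -0.64 and 1.89, against 2.21% and 3.46% of all genes. None of the 17 had a higher estimate than in basal wells, and a missed call on 2 animals does not show an equal level. Col17a1, the hemidesmosomal collagen, was at 8958 and 10740 CPM, against 10170 and 11410 in basal wells (-0.20 ± 0.27 SE, edgeR adjusted p = 0.86) and 3947 and 2672 in spinous wells. Itgb4, the integrin beta chain of hemidesmosomes, was at 1296 and 1844 CPM, against 2482 and 2577 in basal wells (-0.76 ± 0.27, edgeR adjusted p = 0.14) and 301 and 176 in spinous wells. Lama5, a laminin chain, was at 699 and 503 CPM against 34.1 and 33.8 in spinous wells (4.00 ± 0.36, edgeR adjusted p = 1.2e-09).

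Itga3, the integrin alpha chain that binds laminin outside hemidesmosomes, fell, while Itgb4, Itga6 and Itgb1 did not pass against basal wells (edgeR adjusted p = 0.14, 0.71 and 0.23). It was at 702, 590 and 684 CPM on the basal plates of P60 and 883 and 926 CPM on those of P758. It was at 141, 70.0 (3 counts) and 268 CPM on the transitional plates of P60 and 305.5 and 152 CPM on those of P758, and no spinous plate had a count. The fall from basal wells was -2.26 ± 0.32 SE (edgeR adjusted p = 9.1e-06), and the transitional level was at least 42.3-fold above spinous wells by the floor of 3 counts. Agrn, a basement membrane proteoglycan, fell in the same way (-1.61 ± 0.27, edgeR adjusted p = 0.00013). Sparc, a matrix protein, had 0 counts in transitional wells, at least 7.54-fold lower than in basal wells.

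Of 22 proliferation genes tested, 7 were lower than in basal wells (Ccna2, Ccnd2, Kif11, Mcm2, Mcm4, Rrm1 and Tubb5) and none was higher, with a list median of -1.89, against 2.21% of all genes lower. Summed over the list, transitional wells were below basal wells on 4 of 5 plates, and on the plate of P758 that holds its deepest transitional well they were above (10388 against 4183 CPM). Replication-dependent histones, a list added after the data were seen, were lower for 42 of 44 genes tested (median -3.99), against 2.21% of all genes. H2ac10 was at 562 and 430 CPM in basal wells and had no count in transitional or spinous wells, at least 29.4-fold lower than basal. H1f5, a linker histone, was at 645 and 601 CPM in basal wells and at 30.9 and 0 CPM in transitional wells (-5.15 ± 0.52 SE, edgeR adjusted p = 1.4e-08). Histone levels moved with depth in basal wells: H1f5 was at 182 CPM in basal wells of 500 to below 1500 counts and at 723 CPM in those of 1500 or more in P60. Among wells of 1500 counts or more, H1f5 was at 723 and 1076 CPM in basal and at 29.2 and 0 CPM in transitional wells. In wells of 500 to below 1500 counts transitional wells had no count, against 35 counts in basal wells of P60 (182 CPM, where 3 counts in transitional wells would be 131 CPM) and 1 count in P758 (9.84 CPM), so a difference at that depth could not be shown in P758.

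Of 25 translation factors and 36 cytosolic ribosomal protein genes tested, 0 were called in either contrast by edgeR. Over all genes 3.47% and 7.01% were called (766 and 1110 genes at an unadjusted p under 0.05). At these rates lists of this size would hold few calls, so 0 calls do not show equal levels. Of the ribosomal protein genes, 29 of 36 had a higher estimate than in basal wells (median 0.357) and 24 than in spinous wells (0.078). Their sum was 8002 CPM in transitional and 5534 in basal wells of P60, and 6506 and 6168 CPM in P758.

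Few genes set the transitional wells apart from both neighbours: 2 of 6075 were above both (0.0329%) and 2 below both (0.0329%). Lama1, a laminin chain, was at 111, 401 and 92.3 CPM in basal, transitional and spinous wells of P60 and at 152, 168 and 105 CPM in P758 (1.20 ± 0.34 SE, edgeR adjusted p = 0.036, and 1.46 ± 0.36, edgeR adjusted p = 0.0079). In P758 the wells of 1500 counts or more had 105 CPM in transitional and 141 CPM in basal wells, and on the plates of P758 alone both calls were lost. On 1 plate of P758 Lama1 was lowest in transitional wells (172.6, 101.8 and 127.9 CPM, the transitional value from 2 counts). Med13, a subunit of the Mediator kinase module, was at 181, 401 and 199 CPM in P60 and 176, 442 and 206 CPM in P758. On 1 plate of P60 it was lowest in transitional wells (193, 153 and 202 CPM). Sun2, of the nuclear envelope, was at 290, 72.0 and 405 CPM in P60 and 219, 152 and 315 CPM in P758. On 1 plate of P758 its transitional level was above the basal one and near the spinous one (172.6, 305.5 and 310.6 CPM). Sun2 also moved with depth: basal wells of P60 had 104 CPM at 500 to below 1500 counts and 322 CPM at 1500 or more. Krt16, a stress keratin, had counts in only 2 transitional wells. With DESeq2, or with wells of at least 500 counts, no gene lay above both or below both. A set of 5 genes (Hey1, Eif2a, mt-Nd1, mt-Nd2 and 6430548M08Rik), listed after the data were seen for their higher level in shallow wells, summed to 8053 CPM in transitional and 3237 CPM in basal wells of P60, and to 6415 and 5704 CPM in P758; the part of depth in the 4 calls was not tested.

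**Figure D3:**
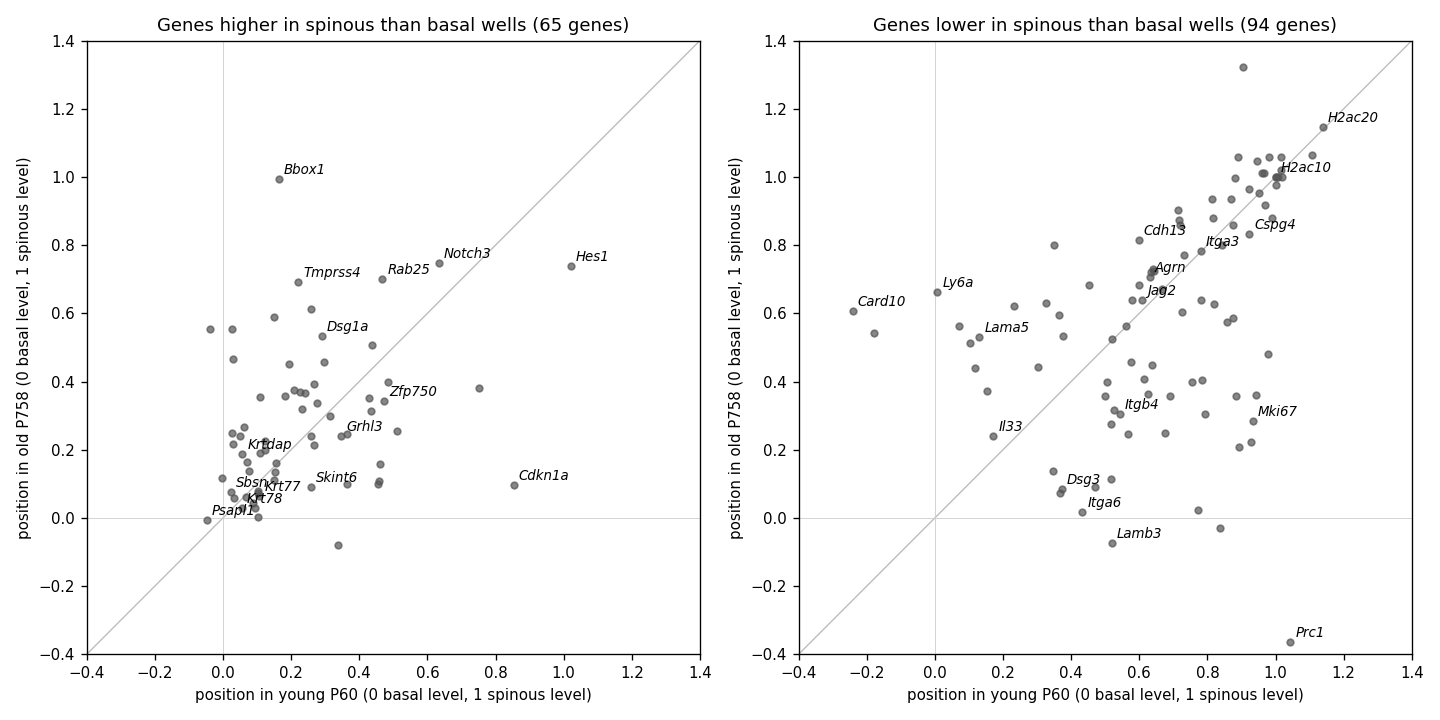
Position of the transitional level of each gene in young P60 (x axis) and old P758 (y axis), where 0 is the basal and 1 the spinous level on the linear CPM scale, for 65 genes higher (left) and 94 genes lower (right) in spinous than basal wells; the diagonal marks equal positions. On this scale most rising genes lie below 0.4, and most falling genes lie above 0.5 in P60. The order of the medians turns round on a log2 scale, but not for the histone and proliferation genes.

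The order of rising and falling genes depended on the scale. Genes were taken that differed between spinous and basal wells by edgeR, by 4-fold or more, and reached 200 CPM in the higher class of both animals. The 65 rising genes had a median position of 0.195 in P60 (quartiles 0.087 to 0.346) and 0.241 in P758 (0.11 to 0.38). The 67 falling genes outside the histone and proliferation lists had a median of 0.599 in P60 (0.375 to 0.742) and 0.531 in P758 (0.337 to 0.667). The 27 falling genes of those lists had medians of 0.961 and 0.996. On the linear scale the falling genes were thus further along than the rising ones. On a scale of log2(CPM + 10) this turned round for the 67 falling genes outside those lists. Their medians were 0.323 and 0.256, against 0.444 and 0.531 for the rising genes, so neither of these sets can be said to lead. The 27 genes of the histone and proliferation lists stayed ahead of the rising genes, with medians of 0.844 and 0.991. The order of single genes was only loosely shared by both animals: the rank correlation of positions was 0.331 over the 65 and 0.52 over the 94 genes, which share the libraries of each class.

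Among rising genes, on the linear scale, Hes1 (1.02 and 0.739), Notch3 (0.633 and 0.746) and Rab25, a vesicle transport GTPase (0.467 and 0.702), were far along. Krt77 (0.107 and 0.063), Sbsn (0.024 and 0.075) and Krt78, a late keratin (0.056 and 0.03), were near the start. Among falling genes, Itga3 (0.78 and 0.782), Agrn (0.63 and 0.708) and Jag2 (0.609 and 0.639) were far along in both animals. Itga6 (0.433 and 0.016), Lamb3 (0.52 and -0.074) and Dsg3 (0.372 and 0.084) were earlier and differed between the animals. The keratins of the rule stood at 0.16 and 0.285 for Krt1, 0.142 and 0.22 for Krt10, 0.214 and -0.253 for Krt5 and 0.483 and -0.093 for Krt14.

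**Figure D4:**
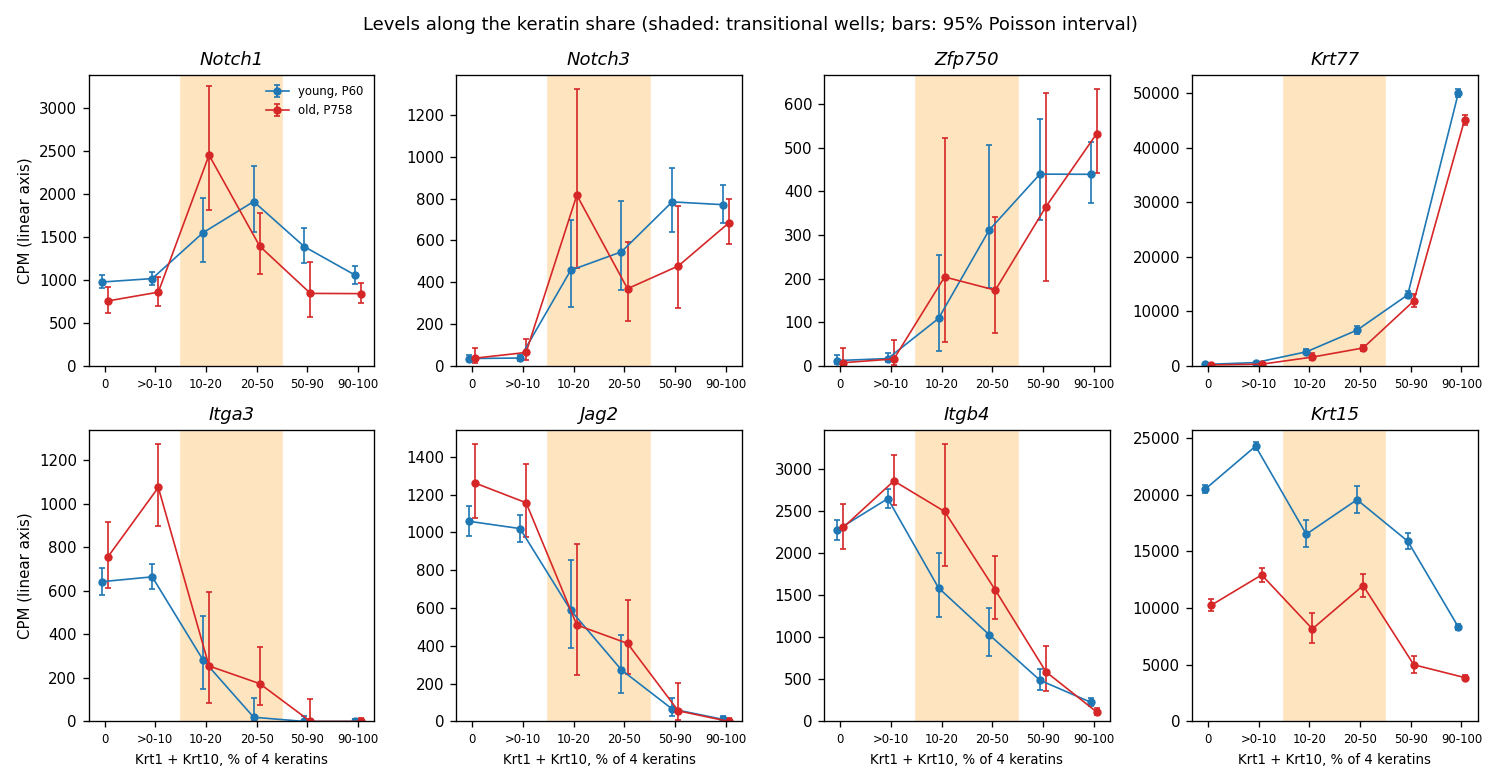
Level of 8 genes (y axis, CPM, linear) by the share of Krt1 and Krt10 among the 4 keratins (x axis, percent bins) in young P60 and old P758, with 95% Poisson intervals that cover counting error only; shading marks the transitional wells. Notch3 leaves its basal level in the first shaded bin. Krt77 in P60 is already higher in the bin just before the shading (628 CPM) than in wells without a spinous keratin count (278 CPM). On this linear axis most of the rise of Krt77 lies after the shaded bins.

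Below a share of 0.1 Notch3 was at 35.7 CPM in wells without a spinous keratin count and 38.0 CPM in the others of P60, and then at 457.5 CPM between 0.1 and 0.2 and 545.5 CPM between 0.2 and 0.5. In P758 these values were 37.7, 64.7, 816 and 369 CPM, where the bin from 0.1 to 0.2 held 19 wells, fewer than the 20 set as a minimum. Itga3 in P60 went from 642 and 665 CPM to 283 and then 19.5 CPM, the last a single count, and was at 0 above 0.5. In P758 it went from 755 and 1076 CPM to 255 and then 174 CPM (8 counts), and was also at 0 above 0.5. Krt77 in P60 went from 278 and 628 to 2592 and 6565 CPM, and reached 13029 and 50051 CPM above 0.5. Notch1 was at 1547 and 1909 CPM in the transitional bins of P60 and at 975, 1015, 1385 and 1055 CPM in the bins around them.

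With 1 animal per age that had at least 5 transitional wells, ages were compared without a test, by a fold of 4 or more among genes of at least 200 CPM in the higher animal. Of 1236 such genes, 22 (1.78%) were past that fold, 18 higher in old P758 (1.46%) and 4 higher in young P60 (0.324%). In basal wells 2 of 1125 genes (0.178%) and in spinous wells 13 of 1078 (1.21%) were past it. The summed counts outside the rule genes were 65629 in transitional and 256141 in basal wells of P758, and 97231 and 1407035 in P60.

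Several of the genes higher in P758 came from 1 well. Top2a, the topoisomerase of dividing cells, had 46 counts in P758 and 0 in P60 (at least 22.7-fold by the floor of 3 counts), and 97.8% of these came from 1 well. Together Top2a, Mki67, Cenpf, Anln and Prc1, all genes of mitosis, had 156 counts in transitional wells of P758, and 150 of them lay in the deepest well of the class. That well held 10832 counts, 632 of Krt1 and Krt10 and 837 of Krt5 and Krt14. In P60 the same genes had 19 counts over 77 wells. Without the deepest well of each animal, 18 genes were past the fold.

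The other genes named were not confined to that well. Slit2, a secreted guidance protein, had 14 counts in P758 and 0 in P60 (213 CPM, at least 6.91-fold), and 1 well gave 50% of them. It was also higher in P758 in basal wells (62.5 against 3.55 CPM) and in spinous wells (105 against 4.01 CPM). Il12rb2, an interleukin receptor chain, was lower in P758 (91.4 CPM, 95% Poisson interval 33.5 to 199) than in P60 (422 CPM, 303 to 572), and basal wells had 113 and 295 CPM. Tuba4a, an alpha tubulin, was at 472 CPM in P758 (321 to 670.5) and 51.4 CPM in P60 (16.7 to 120, 5 counts). The ages were closer in basal wells (258 CPM in P758 and 186 in P60) and in spinous wells (619 and 419 CPM). Wasf2, Tnk2 and Ago4 were the others lower in P758.

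**Figure D5:**
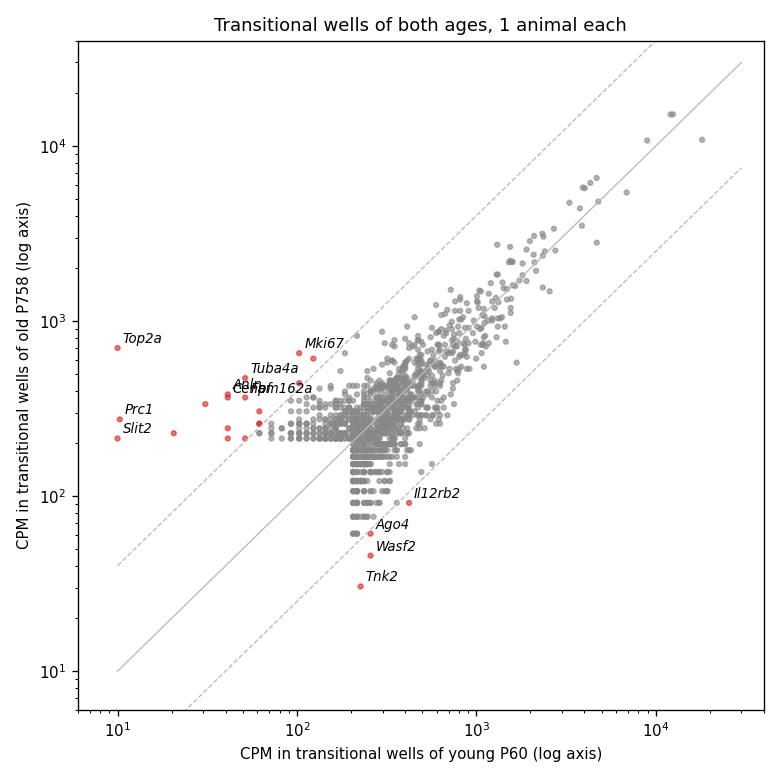
Level of each gene of at least 200 CPM in either animal in transitional wells of young P60 (x axis) and old P758 (y axis), CPM on log axes, with dashed lines at 4-fold and genes past them in red; genes at 0 are drawn at the edge. Of 1236 genes 22 are past the lines, and the mitosis genes of the single deepest well are among those above.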

How the data were processed

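Ribosome footprints were counted per gene in single wells of 10 plates from old and young mice. The deposited tables hold whole-number counts per gene and well; per the submitters' processing notes, fastp, Bowtie2, STAR, UMI-tools and featureCounts were used with GRCm38.p6, with no order or settings stated. Wells with fewer than 100 counts were left out, and classes were assigned by the keratin rule in the report. The members and gene lists were chosen with earlier results of these data known. Counts were summed per animal and class without the 21 rule genes, filtered with filterByExpr, scaled by TMM (factors 0.939 to 1.08) and tested with edgeR 4.0.16 in R 4.3.3 (robust quasi-likelihood, Benjamini-Hochberg); standard errors are the log2 difference over the root of F. CPM levels were computed on the counts outside the rule genes without TMM. Depth was 71776 and 102389 counts in the transitional wells of P758 and P60; intervals and floors cover counting error only. Nothing says that plates came from separate animals beyond age and day, so p-values rest on 2 animals.

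For each contrast the text names at most 10 called genes per direction, ranked by size of change, of at least 200 CPM in the higher class and the same direction in both animals, genes above or below both classes, the markers, and list examples by mean CPM; others are named as examples chosen after their values were seen. The test was tested on simulated data. The planned age test could not be run, since 1 animal per age had at least 5 transitional wells. Alternatives were DESeq2 1.42.0, no TMM, no filter, other keratin and depth limits, thinning to 100 counts and, added after seeing the data, plates as units, depth strata and leaving out the deepest wells. Summaries and figures used Python 3.11.15.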

Additional observations from a re-analysis of the deposited data

Results flagged for a closer look

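The nuclease test plate, from an old mouse of the same day as P758, entered no comparison above. By the same rule 12 of its 128 classified wells (9.375%) were transitional, against 45 of 391 (11.5%) on the plates of P758. No plate was labelled as its control, and the difference was not tested. The Sca-1-negative plate had 1 classified well and no transitional well.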

How the results depend on the processing

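Against basal wells the count of called genes (211) became 87 with DESeq2, 5 with wells thinned to 100 counts, 2 in wells of 500 to below 1500 counts, and 48 to 387 when 1 animal was left out with plates as units (48 without P60, 387 without P758). Against spinous wells (426) it became 165 with DESeq2, 200 with a share from 0.2 to below 0.4, 25 after thinning, 54 in wells of 500 to below 1500 counts, 231 in wells of 1500 or more, and 128 to 407 without 1 animal. Fewer genes could be tested after thinning (257) and in the middle wells (1747). Genes above or below both classes (4) numbered 0 with DESeq2, with at least 500 counts per well, after thinning and in the middle wells, 1 in wells of 1500 or more, 7 with a share from 0.2 to below 0.4, 17 without the deepest wells, 18 with plates as units and 0 to 42 without 1 animal. Genes past 4-fold between the ages (22) numbered 50 with at least 20 keratin counts, 2 after thinning, 12 in the middle wells and 51 in wells of 1500 or more; DESeq2, no filter and leaving out an animal were not run for it, since it has no test and 1 animal per age. The old minus young share (-4.07 percentage points) was 1.10 with at least 20 keratin counts, where P60 was the only young animal, and -6.29 to -2.70 without 1 animal. On the log2 scale, added after seeing the data, the median position was 0.444 (P60) and 0.531 (P758) for rising genes. It was 0.402 and 0.311 for all falling genes, and 0.323 and 0.256 for those outside the histone and proliferation lists. The genes of those lists stood at 0.844 and 0.991, above the rising genes on this scale too. Of the named genes, Skint6 against basal wells turned to -1.65 after thinning and Rab25 to -0.14 in the middle wells; the cause was not tested. No gene called in either class contrast was called in the opposite direction under any of these alternatives. No paired analysis was possible because the animals of both ages share no replicate number. Leaving out an animal leaves no residual degrees of freedom with animals as units, so plates of 1 animal, which are technical, stood in.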
